A study of Mus musculus with 6 samples.

Results

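The 10 genes described here encode the stem cell factor receptor Kit, the transcription factor Gata2, the granule proteases of mast cells and basophils (Cpa3, Mcpt2, Mcpt4, Mcpt8, Tpsab1 and Tpsb2) and both chains that are specific to the high-affinity IgE receptor (Fcer1a and Ms4a2). They were chosen by name, with earlier results of these data known, and all 10 were found among the 24061 gene rows of the count table. RNA sequencing was done on total RNA from mouse lung in 2 groups of 3 libraries. The control group had the genotype CCSP/- and the other group, called TGFalpha here, had CCSP/TGFalpha. Both were on doxycycline for 3 weeks, so CCSP and the drug were common to the controls and the TGFalpha mice. CCSP stands for a secreted protein of club cells, and its promoter commonly directs transgenes to lung epithelium; TGFalpha is a ligand of the epidermal growth factor receptor. The sources used here give no strain, sex, age or origin of the TGFalpha sequence. Nothing in the labels says that each library is a separate animal, and p-values therefore reflect just the spread among these samples, which may be technical. The comparison asks how these transcripts differed between lungs with and without the TGFalpha transgene.

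Mast cells are tissue-resident cells that store histamine and proteases in granules and release them when IgE on their surface meets antigen. They depend on Kit and its ligand Kitl for survival, and on Gata2 for the expression of many of their genes. Mouse mast cells are commonly divided into a mucosal type, known for the chymases Mcpt1 and Mcpt2, and a connective tissue type, known for Mcpt4, Cma1, Cpa3 and the tryptases. Kit and Gata2 are not restricted to mast cells: in the lung both are also transcribed in endothelium, and Gata2 serves blood progenitors too.

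The chymases are close relatives, so the first coding bases of 3 of them are shown to let a reader see how the rows are told apart. The stretches are from the GENCODE M21 transcripts on GRCm38, in the sense of the transcript, each 90 bases from the start codon and divided by an intron in the genome. They lie within chr14:56042154-56042735 (plus strand) for Mcpt2, chr14:56017999-56018595 (plus strand) for Mcpt1 and chr14:56061690-56062274 (minus strand) for Mcpt4. Capitals mark bases that differ from Mcpt2, 2 in Mcpt1 and 6 in Mcpt4.
Mcpt2: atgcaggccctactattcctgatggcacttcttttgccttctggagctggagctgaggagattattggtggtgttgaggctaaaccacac
Mcpt1: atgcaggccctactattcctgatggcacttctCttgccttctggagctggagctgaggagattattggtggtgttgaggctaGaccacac
Mcpt4: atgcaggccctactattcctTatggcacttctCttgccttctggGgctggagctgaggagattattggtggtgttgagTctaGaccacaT
Over the whole coding sequence the identity to Mcpt2 was 80.4% for Mcpt1 and 78.7% for Mcpt4, with gaps counted as differences. No run of 50 bases in a coding transcript of Mcpt2 was shared with Mcpt1, Mcpt4, Mcpt8, Mcpt9 or Cma1. Mcpt4 shared 7 such runs with Mcpt9. The tryptases Tpsab1 and Tpsb2 had 74.9% identical bases where both could be aligned, and they shared no run of 50 bases. How the authors' counting treated reads that fit more than 1 of these genes is not given in the sources used here, so the split within each family is uncertain for shorter matches.

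Promoters (250 bases before to 50 after the gene start, RefSeq on GRCm38.p6) were at hand for 7 of the 10 genes, all but Mcpt2, Tpsab1 and Tpsb2. They were searched on both strands for GATAA, the core that GATA factors bind. Of the 7 genes, 4 had a match (Cpa3, Fcer1a, Mcpt4 and Ms4a2), and 25.4% of all 32851 promoters of this length held one. The promoters of Kit, Gata2 and Mcpt8 had no match, which says only that these letters were not in the window. CATGTG, a form of E-box bound by the mast cell factor MITF, was in the Fcer1a promoter alone of the 7, against 14.2% of all promoters. The windows around the matches are shown because GATA2 is itself among the 10 genes. Capitals mark the motif as read on the strand of the gene (TTATC where it lies on the other strand), and each window is written 5′ to 3′ from bases before the start in the RefSeq promoter table.
Cpa3: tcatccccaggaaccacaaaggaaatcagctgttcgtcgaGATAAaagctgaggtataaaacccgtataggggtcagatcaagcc
Fcer1a: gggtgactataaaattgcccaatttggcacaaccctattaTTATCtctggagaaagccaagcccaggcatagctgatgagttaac
Mcpt4: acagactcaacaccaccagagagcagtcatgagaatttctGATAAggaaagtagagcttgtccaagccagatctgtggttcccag
Mcpt1: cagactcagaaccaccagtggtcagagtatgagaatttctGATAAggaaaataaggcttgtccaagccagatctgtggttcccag
They span chr3:20242182-20242266, chr1:173227277-173227361 and chr14:56062368-56062452 on the minus strand for the members, and chr14:56017826-56017910 on the plus strand for Mcpt1. Mcpt1 is added as another chymase gene of the same chromosome as Mcpt4, and it was picked out with its values seen. Their 2 windows had 86% identical columns when aligned, and their whole promoters 81%. Ms4a2 had 3 matches, the nearest 10 bases before the start in that table. The RefSeq spans of Cpa3, Ms4a2 and Mcpt8 reach beyond that start, and the whole window searched for Mcpt8 lies inside its span. A match is a description of the letters and not a binding site.

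Gene counts summed to between 21479006 and 24914322 per library. Lung markers were present in all 6 libraries, with Sftpc (surfactant protein C) at 3456 CPM or more, Scgb1a1, the gene of CCSP, at 1679 CPM or more and Ager at 314 CPM or more (CPM, the gene's counts scaled to a common library size with TMM factors). Control replicate 1 and TGFalpha replicate 1 stood apart by skeletal muscle transcripts. The summed level of 11 muscle markers was 1544 and 2693 CPM in them and between 53.5 and 71 CPM in the other 4 libraries. None of the 8 that could be tested passed with edgeR (smallest adjusted p 0.644, for Actn3, and 0 at an unadjusted p below 0.05), nor did any with DESeq2 or limma-voom.

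Kit and Gata2 fell, Mcpt2 and Tpsab1 rose, and Cpa3, the most abundant of the proteases, did not pass the test in either direction. Of the 10 genes, 8 passed the filter on low counts and were tested with edgeR. At a Benjamini-Hochberg adjusted p under 0.05, 2 rose and 2 fell, 4 did not pass, and Mcpt8 and Tpsb2 were not tested. Over all 16089 genes tested, 8.33% were called, 5.03% as higher and 3.29% as lower in TGFalpha lungs. Mcpt2 and Tpsab1 passed the filter only through the TGFalpha libraries, so the number of members called gives no support of its own. In 4 of the 8 tested genes the CPM of the groups did not overlap, Kit and Gata2 below and Mcpt2 and Tpsab1 above the controls, while 33.2% of all tested genes did not overlap. The filter bears on this count of 4 in the same way, so it gives no support of its own either. Mcpt8, which was not tested, also lay above the controls in every TGFalpha library.

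**Figure D1:**
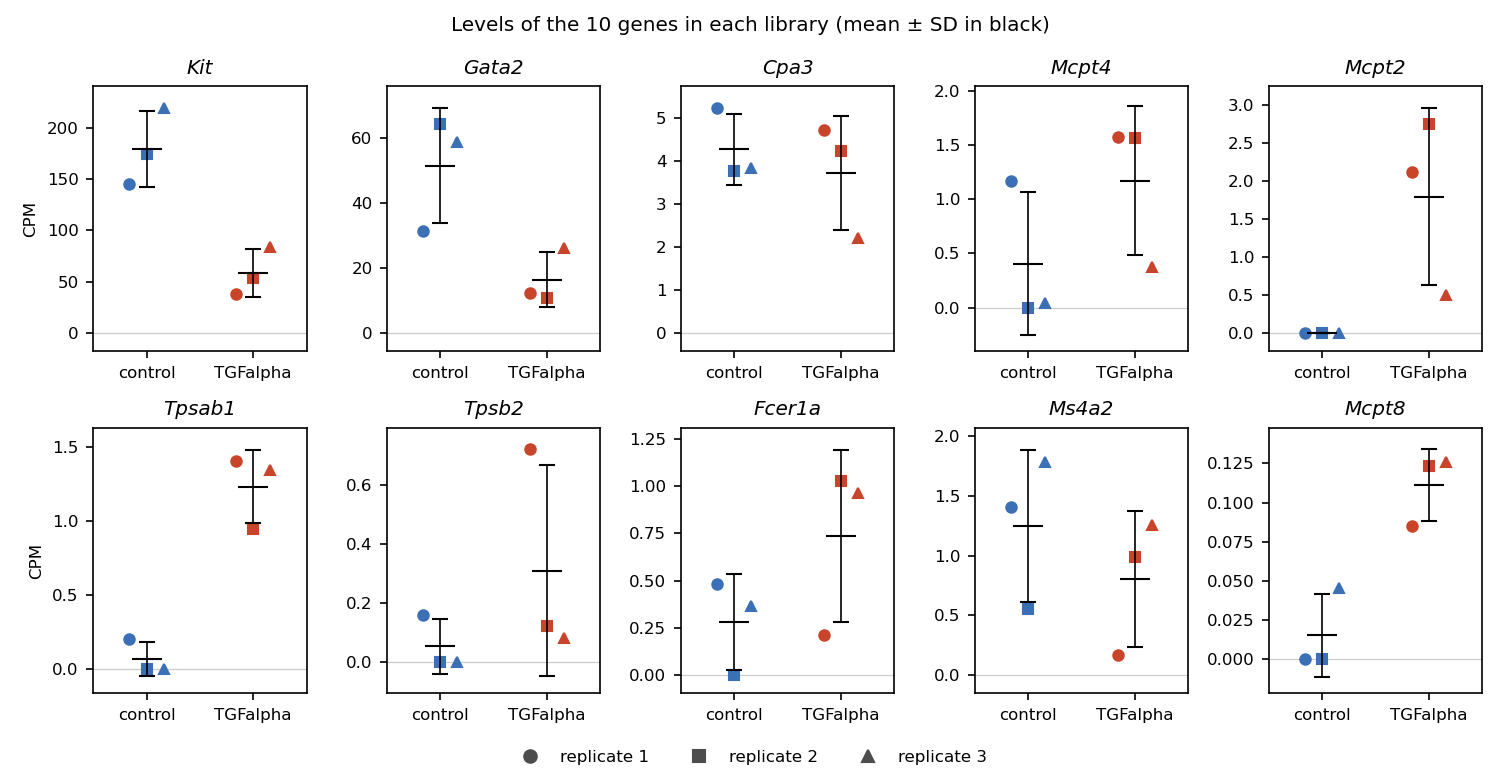
CPM of each of the 10 genes in the 3 control (blue) and 3 TGFalpha (red) libraries, each panel on its own linear axis, with mean and SD in black and the marker shape giving the replicate number. Kit and Gata2 lie lower in every TGFalpha library, Mcpt2 is at 0 in every control library, and Cpa3 overlaps between the groups.

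Kit (gene ID 16590, GRCm38 chromosome 5, 75574987 to 75656722) encodes the receptor tyrosine kinase that binds stem cell factor. It was at 145, 175 and 219 CPM across the controls (replicates 1 to 3, the order used throughout) and at 38.6, 53.9 and 83.6 CPM across the TGFalpha libraries. All 3 TGFalpha libraries were below the lowest control. The mean went from 179 ± 37.1 to 58.7 ± 22.9 CPM (SD, n = 3 per group), or -1.61 ± 0.29 as log2 fold change with its SE (95% interval -2.27 to -0.95, edgeR adjusted p = 0.0181). With both muscle-bearing libraries left out the change was -1.52 (edgeR adjusted p = 0.0304). Kit no longer passed when control 2, control 3 or TGFalpha 2 was omitted (adjusted p = 0.07, 0.0893 and 0.0632).

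Gata2 (gene ID 14461, chromosome 6, 88193891 to 88207032) encodes a zinc finger factor of blood progenitors, mast cells and endothelium. It was at 31.5, 64.2 and 58.8 CPM in the controls and at 12.5, 11 and 26.1 CPM in the TGFalpha libraries. The groups did not overlap, and the nearest pair were TGFalpha replicate 3 and control replicate 1. Mean Gata2 was 51.5 ± 17.5 CPM in controls and 16.5 ± 8.35 CPM in TGFalpha lungs (log2 fold change -1.64 ± 0.38, edgeR adjusted p = 0.04). The adjusted p was 0.0611 with both muscle-bearing libraries left out, and 0.137, 0.152, 0.139 and 0.0967 without control 2, control 3, TGFalpha 1 or TGFalpha 2.

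Kitl, the ligand of Kit, fell as well, with means of 350 ± 92.8 and 165 ± 48.2 CPM (log2 fold change -1.09 ± 0.27, edgeR adjusted p = 0.0454). It was at 255, 354 and 441 CPM in the controls and at 118, 162 and 214 CPM in the TGFalpha libraries, which do not overlap. Of the 12 genes tested for Kit ligand and signalling, Kitl was the 1 that fell and the adaptor gene Shc1 the 1 that rose (means 61.4 ± 4.6 and 98.4 ± 11.6 CPM, log2 fold change of 0.68 ± 0.15, edgeR adjusted p = 0.0339). Over the list the median log2 fold change was -0.20, against 0.01 over all tested genes. The Shc1 call was lost without any 1 library (adjusted p between 0.0514 and 0.153), and the Kitl call without control 2, control 3, TGFalpha 1 or TGFalpha 2 (between 0.106 and 0.173) and with both muscle-bearing libraries left out (0.0562).

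Factors that act with GATA proteins in blood and endothelium moved with Gata2 in part. Of 12 tested, 4 fell and none rose with edgeR, and 2 had higher levels with an unadjusted p below 0.05. Over all genes tested, 3.29% fell and 5.03% rose. This list too was chosen with earlier results of these data known, so its counts give no support of their own. No gene of the list rose with DESeq2 or limma-voom. Tal1, a partner of GATA factors in blood and endothelial precursors, was 15.5 ± 3.78 CPM in controls and 6.31 ± 0.897 CPM with TGFalpha (log2 fold change -1.30 ± 0.24, edgeR adjusted p = 0.019). Erg, an ETS factor of endothelium, went from 23.9 ± 6.51 to 9.67 ± 2.41 CPM (-1.30 ± 0.26, adjusted p = 0.0263). Gata3, a factor of T cells and innate lymphoid cells, had a log2 fold change of -1.71 ± 0.42, and the adaptor gene Lmo2 of -0.88 ± 0.23 (edgeR adjusted p = 0.0499). Lmo2 did not pass in any of the 6 fits without 1 library (adjusted p between 0.0629 and 0.187) or with limma-voom (0.0515), which called 3 of the list. The median of the list was -0.12. None of the list was called without control 2, control 3, TGFalpha 1 or TGFalpha 2, although in each of those fits 4 had lower levels with an unadjusted p below 0.05. With both muscle-bearing libraries left out 1 fell.

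Endothelial markers were lower in the same lungs. In bulk RNA, fewer cells of a type and less RNA per cell cannot be told apart. Of 20 endothelial markers all 20 had a negative log2 fold change and 6 fell, with a median of -1.08. Over all 16089 genes tested, 7898 had a negative log2 fold change and 3.29% fell. The list was chosen with earlier results of these data known, so these counts give no support of their own. Tek, the angiopoietin receptor gene, went from 395 ± 109 to 123 ± 55.4 CPM, Pecam1 from 448 ± 104 to 199 ± 60.8 CPM and the VEGF receptor gene Kdr from 368 ± 110 to 156 ± 43.4 CPM. The summed level of the list was between 3154 and 5843 CPM in controls and between 1646 and 3020 CPM in TGFalpha libraries, and no marker was at 0. The number that fell was 0 without control 2, control 3, TGFalpha 1 or TGFalpha 2, with 16, 17, 17 and 16 then showing an unadjusted p below 0.05. It was 15 without control replicate 1, 11 without TGFalpha replicate 3, 3 with both muscle-bearing libraries left out, and 20 with DESeq2.

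Relative to the mean of those markers Kit and Gata2 were still lower on average, but not relative to every single marker. The log2 fold changes of the 20 markers ran from -1.68 (Tek) to -0.58. Kit at -1.61 and Gata2 at -1.64 lay within that range. The log2 CPM of Kit minus the mean log2 CPM of the 20 markers was 0.40, -0.13 and 0.28 over the controls and -0.77, -0.13 and -0.32 over the TGFalpha libraries. Control replicate 2 and TGFalpha replicate 2 were only 0.00037 apart, so the groups barely failed to overlap. The difference of means was -0.59 on the log2 scale (exact permutation test, 2-sided, p = 0.1, also 0.1 after adjustment over 2 tests). For Gata2 the values were -1.80, -1.57 and -1.62 in the controls and -2.39, -2.41 and -2.0 in the TGFalpha libraries, which do not overlap, with a difference of -0.60 (exact permutation test, p = 0.1, and 0.1 adjusted). The smallest p that 3 against 3 libraries can reach is 0.1, so neither can pass 0.05. For Kitl the same quantity differed by -0.02 between the means and the groups overlapped. The part of endothelium in the lower levels of Kit and Gata2 was not tested beyond these values.

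**Figure D2:**
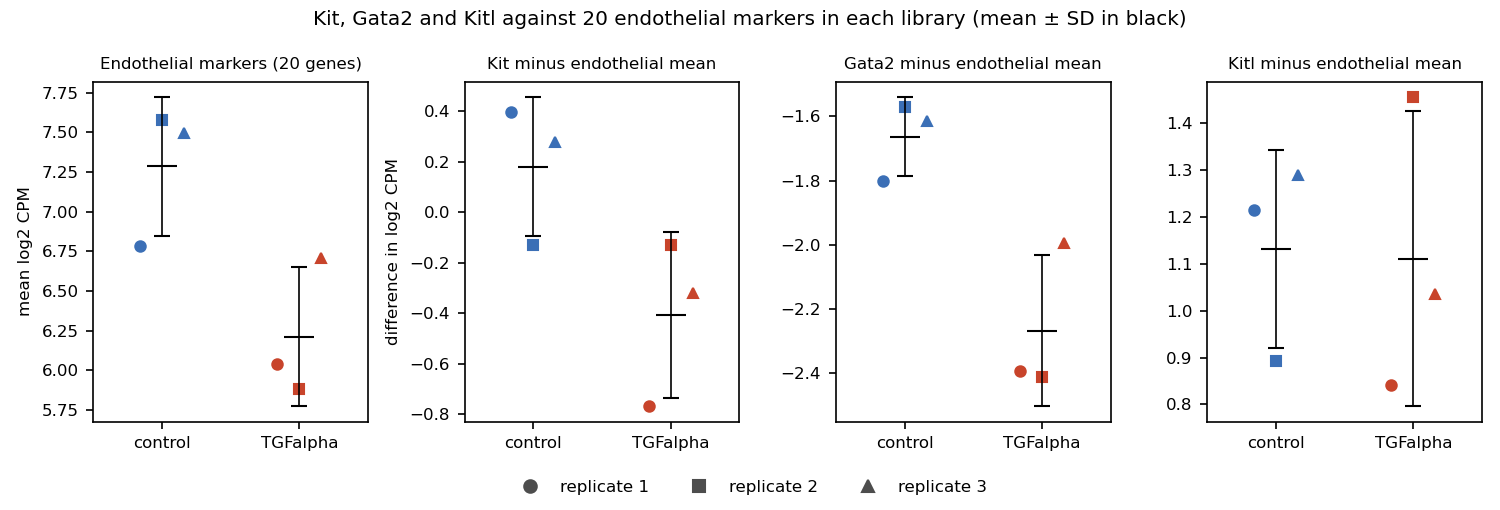
Mean log2 CPM of 20 endothelial markers, and log2 CPM of Kit, Gata2 and Kitl minus that mean, in each control (blue) and TGFalpha (red) library, with mean and SD in black and the marker shape giving the replicate number. Gata2 separates the groups by 0.19 on the log2 scale, Kit by 0.00037, and Kitl overlaps.

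Cpa3 (gene ID 12873, chromosome 3, 20215616 to 20242209) encodes carboxypeptidase A3, a protease of mast cell granules. Its counts were 130, 82 and 84 in the controls and 111, 103 and 53 in the TGFalpha libraries, or 5.22, 3.76 and 3.84 against 4.72, 4.24 and 2.22 CPM. The groups overlapped, with TGFalpha replicate 3 the lowest of all 6. The means were 4.27 ± 0.822 and 3.72 ± 1.32 CPM (log2 fold change -0.20 ± 0.35, edgeR adjusted p = 0.753), and the 95% interval from -1.01 to 0.61 leaves room for a change of up to about that size in either direction. With both muscle-bearing libraries left out the log2 fold change was -0.24.

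Mcpt2 (gene ID 17225, chromosome 14, 56021584 to 56044635), a chymase of mucosal mast cells, had 0 counts in all 3 controls and 50, 67 and 12 counts in TGFalpha replicates 1 to 3. In CPM this was 2.13, 2.76 and 0.503, so every TGFalpha library was above every control and TGFalpha replicate 3 was the lowest of them. The mean was 1.79 ± 1.16 CPM. A floor of 3 counts over the control group corresponds to 0.0437 CPM. Against it Mcpt2 was at least 41.1-fold higher in the summed counts of the TGFalpha libraries (edgeR adjusted p = 0.0236 for the gene). That bound leaves out the spread among the TGFalpha libraries, and replicate 3 alone was closer to the floor. The adjusted p was 0.0713, 0.083, 0.0849 and 0.0656 without control 2, control 3, TGFalpha 1 or TGFalpha 2, and 0.0765 with both muscle-bearing libraries left out, where the counts are 0 and 0 against 67 and 12. The RefSeq span of Mcpt2 holds the gene Mcpt9, whose row was 0 in every library.

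Mcpt1, the other chymase of mucosal mast cells, followed the same pattern, and it was picked out after its values were seen. It had 0 counts in the 3 controls and 8, 42 and 18 counts in TGFalpha replicates 1 to 3. The summed TGFalpha counts were at least 21.7-fold higher against the same floor, a bound that again leaves out the spread among libraries. TGFalpha replicate 1 was the lowest of the TGFalpha libraries for Mcpt1 and replicate 3 the lowest for Mcpt2. It did not pass the filter on low counts. In the edgeR fit without a filter its adjusted p was 0.038, and with DESeq2 0.000477. In 4 of the 6 fits with 1 library left out it passed the filter, and its adjusted p was between 0.0556 and 0.121. Because Mcpt1 was picked out by its values, none of these p-values gives support of its own.

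Mcpt4 and Cma1, the chymases of connective tissue mast cells, did not pass. Mcpt4 (gene ID 17227, chromosome 14, 56059744 to 56062310) had 29, 0 and 1 counts in the controls and 37, 38 and 9 in the TGFalpha libraries. Of its 30 control counts, 29 were in control replicate 1, a library with muscle transcripts, and the groups overlapped through that library. The means were 0.403 ± 0.659 and 1.17 ± 0.687 CPM (log2 fold change 1.49 ± 1.22, edgeR adjusted p = 0.461). Without control replicate 1 the log2 fold change was 5.37 and the edgeR adjusted p 0.0518. The remaining controls in that fit have 0 and 1 counts, so the size of this fold change is uncertain. With both muscle-bearing libraries left out the gene did not pass the filter, at 0 and 1 counts against 38 and 9. Cma1 was at 1.81, 2.25 and 1.55 CPM in the controls and 4.76, 2.1 and 1.3 CPM in the TGFalpha libraries, with overlapping groups and an edgeR adjusted p of 0.528.

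**Figure D3:**
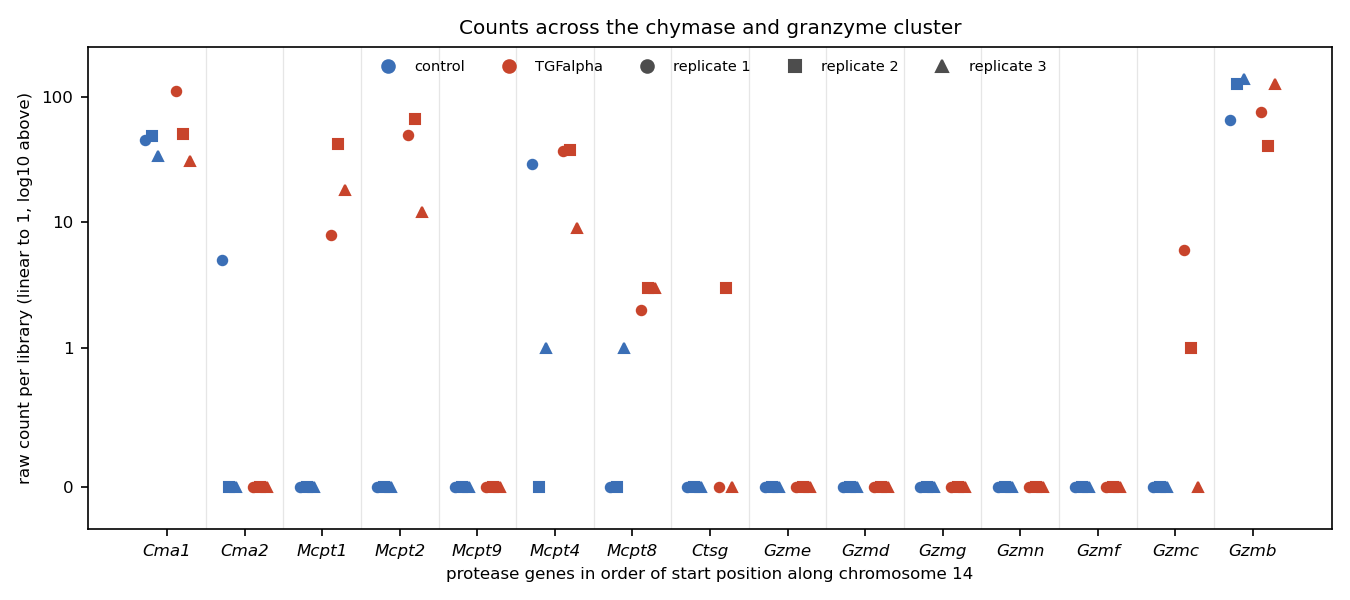
Raw counts per library of the chymase, cathepsin G and granzyme genes in their order along chromosome 14 (axis linear to 1 and log10 above), controls in blue and TGFalpha in red, with marker shape giving the replicate. Mcpt1 and Mcpt2 are at 0 in every control and above 0 in every TGFalpha library, while Cma1 and Gzmb overlap between groups and 6 genes are at 0 in all 6 libraries.

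Most genes of this protease cluster outside the members were too low to test. Whether the cluster was raised as a block was not tested. Summed counts of Cma1, Mcpt1, Mcpt2, Mcpt4 and Mcpt8 were higher in the TGFalpha libraries, while Gzmb had a log2 fold change of -0.53. Of the cluster's 12 genes outside the members, 6 were at 0 in every library (Mcpt9, Gzmd, Gzme, Gzmf, Gzmg and Gzmn). Cma1 and the cytotoxic lymphocyte gene Gzmb, at either end of the order, were the 2 that could be tested, and neither passed with edgeR or limma-voom, nor at an unadjusted p under 0.05. DESeq2, which also took the low rows, called 1 gene of the 12 as higher. The neighbours of the tryptases on chromosome 17 were near 0: the summed level of 7 genes was at most 1.93 CPM, and none could be tested.

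The tryptases, the trypsin-like proteases of connective tissue mast cell granules, were low in every library. Tpsab1 (gene ID 100503895, chromosome 17, 25343245 to 25345562), the alpha and beta 1 tryptase gene, had 5, 0 and 0 counts in the controls and 33, 23 and 32 in the TGFalpha libraries. The 3 TGFalpha libraries lay close together and above every control, and all 5 control counts were in control replicate 1. Mean Tpsab1 was 0.0669 ± 0.116 CPM in controls and 1.23 ± 0.248 CPM with TGFalpha (log2 fold change 4.02 ± 1.04, edgeR adjusted p = 0.0483). The ratio of summed counts was 16.8, with a 95% interval from 6.95 to 53.2 that covers counting error only. The call was lost in 5 of the 6 fits with 1 library left out (adjusted p between 0.0984 and 0.182) and held without control replicate 1 (0.0251). It was also lost with both muscle-bearing libraries left out (0.0574) and without the filter (0.0768). In both fits without control replicate 1 the remaining controls are at 0, and the fitted log2 fold changes, 7.83 and 7.72, are larger than with all libraries and depend on the prior count.

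Tpsb2 (gene ID 17229, chromosome 17, 25366308 to 25368096), the beta 2 tryptase gene, had 4, 0 and 0 counts in the controls and 17, 3 and 2 in the TGFalpha libraries. Most of these were in the muscle-bearing libraries of each group, and the groups overlapped. The ratio of summed counts was 5.26 (95% counting interval 1.79 to 21). The gene was not tested, and without the filter its edgeR adjusted p was 0.432. Whether the tissue that brought muscle transcripts also brought mast cell transcripts was not tested.

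The chains of the IgE receptor did not pass in either direction. Fcer1a (gene ID 14125, chromosome 1, 173221269 to 173227232), the chain that binds IgE, had 12, 0 and 8 counts in the controls and 5, 25 and 23 in the TGFalpha libraries. The means were 0.282 ± 0.251 and 0.735 ± 0.453 CPM (log2 fold change 1.35 ± 1.03, edgeR adjusted p = 0.428), and TGFalpha replicate 1 lay among the controls. The Fcer1a log2 fold change ran from 0.79 without control replicate 2 to 1.97 without control replicate 1, and was 2.41 with both muscle-bearing libraries left out (edgeR adjusted p = 0.316). Ms4a2 (gene ID 14126, chromosome 19, 11615517 to 11623790), the beta chain that amplifies the signal, had 35, 12 and 39 counts in the controls and 4, 24 and 30 in the TGFalpha libraries. Its means were 1.25 ± 0.631 and 0.805 ± 0.566 CPM (log2 fold change -0.63 ± 0.75, edgeR adjusted p = 0.625). For Ms4a2 it ran from -1.11 without TGFalpha replicate 3 to -0.15 without TGFalpha replicate 1, and was -0.06 with both muscle-bearing libraries left out (edgeR adjusted p = 0.982). TGFalpha replicate 1 was the lowest library of its group for both chains and the highest for Tpsab1 and Tpsb2. At these counts the 95% intervals were wide, from -1.01 to 3.71 for Fcer1a and from -2.35 to 1.09 for Ms4a2.

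Of the 13 genes tested for signalling below the receptor, none passed with edgeR or limma-voom, and 1 fell with DESeq2. By unadjusted p below 0.05, edgeR had 1 higher and 1 lower. Plcg1, a phospholipase gene of that pathway, had the smallest adjusted p (0.101, log2 fold change -0.53 ± 0.18). Fcer1g, the gamma chain that many myeloid receptors share, was at 235, 139 and 121 CPM in the controls and 181, 289 and 110 CPM in the TGFalpha libraries, with overlapping groups.

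Mcpt8 (gene ID 17231, chromosome 14, 56082163 to 56085499), a protease of basophils, was at the limit of detection. It had 0, 0 and 1 counts in the controls and 2, 3 and 3 in the TGFalpha libraries. The ratio of summed counts was 7.66, with a 95% counting interval from 1.03 to 340. The gene was not tested with the filter, and without it the edgeR adjusted p was 0.429. Among the basophil markers, Prss34 had 3 counts in control replicate 2 and 0 elsewhere, and Cd200r3 had 4, 0 and 1 counts in the controls and 3, 20 and 17 in the TGFalpha libraries. The 1 basophil marker that could be tested, the interleukin 3 receptor gene Il3ra, had 225 counts over the controls and 185 over the TGFalpha libraries (edgeR adjusted p = 0.577) and made up most of the summed level. The summed level of the 5 basophil markers was between 3.33 and 4.15 CPM in controls and between 1.79 and 4.89 CPM in TGFalpha libraries.

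Compared per kilobase of exon, the 10 genes formed different orders in the groups. In the controls the mean level was 20.1 ± 4.16 CPM per kb for Kit, 9.54 ± 3.25 for Gata2 and 2.82 ± 0.542 for Cpa3, and below 0.5 for the others. In TGFalpha lungs Kit was at 6.59 ± 2.57 and Gata2 at 3.06 ± 1.55 CPM per kb, the latter within its spread of Cpa3 at 2.46 ± 0.873. Mcpt2 followed at 1.69 ± 1.1, Mcpt4 at 1.06 ± 0.62, Fcer1a at 0.736 ± 0.454 and Tpsab1 at 0.587 ± 0.118 CPM per kb. Neighbours in that run, from Gata2 to Tpsab1, differed by less than the larger of their SDs. Ms4a2, Tpsb2 and Mcpt8 were the lowest, at 0.286, 0.194 and 0.112 CPM per kb.

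The other mast cell genes that could be tested did not move as a group. Of 19 listed, 12 could be tested and none passed with edgeR or limma-voom. Mcpt1, Mcpt9, Mrgprb1, Mrgprb2, Tph1, Tpsg1 and Ctsg were too low to be tested. Several tested genes were far above Cpa3 (4.27 CPM in controls), such as Srgn at 111 and Mitf at 41.3 CPM. How much of these levels came from cells other than mast cells was not tested. By unadjusted p below 0.05, edgeR had 1 lower and none higher with all libraries, 1 lower and 4 higher without control replicate 1, and none lower and 3 higher with both muscle-bearing libraries left out. DESeq2 called 1 as higher. The median log2 fold change was 0.06. Hdc, which encodes histidine decarboxylase, the enzyme that makes histamine, averaged 118 ± 17.4 CPM in controls against 108 ± 18.5 CPM with TGFalpha (log2 fold change -0.13 ± 0.18, edgeR adjusted p = 0.682). Slc18a2, which loads histamine into granules, had the smallest adjusted p of the list (0.121), going from 5.88 ± 0.733 to 3.49 ± 0.606 CPM. Mrgprb2, a receptor of connective tissue mast cells, had between 0 and 8 counts per library.

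**Figure D4:**
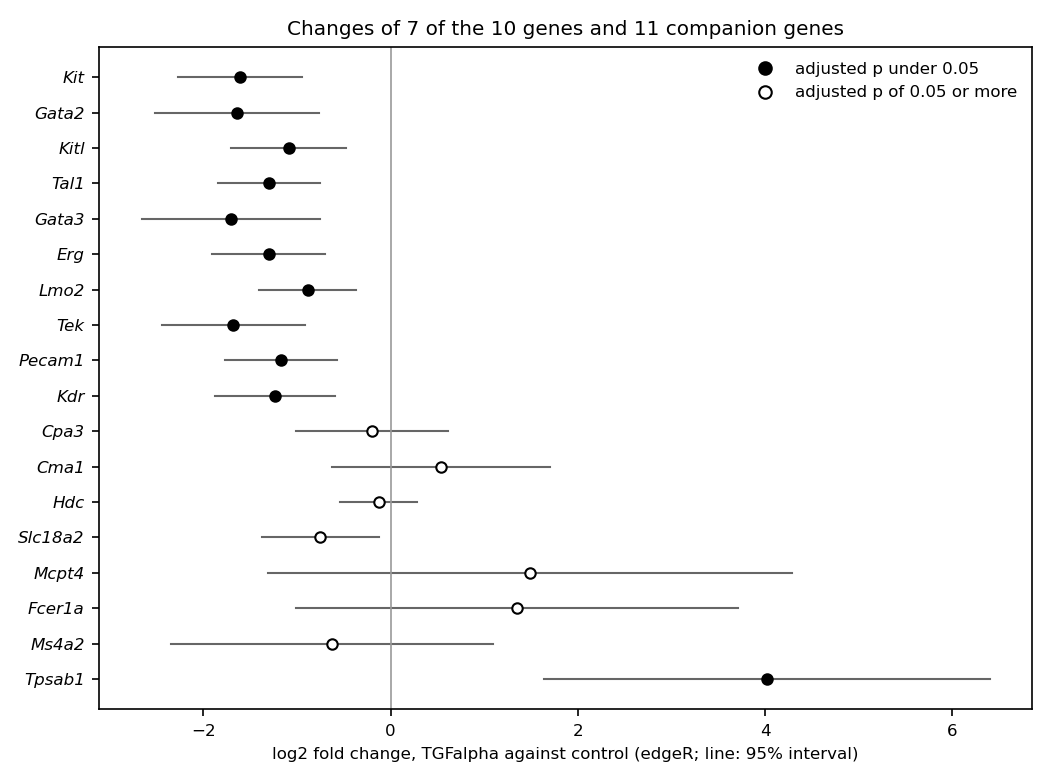
Log2 fold change of TGFalpha against control lungs with 95% interval (edgeR) for 7 of the tested members and 11 companion genes, filled where the adjusted p was under 0.05. Kit and Gata2 lie to the left with Kitl, Tal1 and the endothelial genes, Tpsab1 lies to the right at 4.02, and Cpa3 and Hdc cross 0.

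Signals that feed or follow mast cells gave 1 call. Of 11 listed, 5 were tested, and Il5, the cytokine of eosinophil growth, fell, from 14, 21 and 12 counts to 2, 0 and 0 (edgeR adjusted p = 0.0436). The groups did not overlap, and the call was lost without any 1 library (adjusted p between 0.071 and 0.153), with both muscle-bearing libraries left out (0.0826) and without the filter (0.0858). Il5 passed the filter on low counts only through the control libraries. Il33, an alarmin that acts on mast cells, was at 274 ± 125 and 311 ± 60.9 CPM (edgeR adjusted p = 0.742). Il3, Il9 and Il25 were at 0 in all 6 libraries.

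Markers of other cells that share some of these transcripts were checked beside them. All 7 dendritic cell markers had a negative log2 fold change, with a median of -0.93, and 5 had an unadjusted p below 0.05 with edgeR. Over all 16089 genes tested, 7898 had a negative log2 fold change and 3.29% fell. The marker lists were chosen with earlier results of these data known, so their counts give no support of their own. Of the 7 dendritic cell markers, 2 fell. Clec9a went from 53.1 ± 16.6 to 16.7 ± 5.93 CPM and Cd209a from 12.2 ± 2.2 to 5 ± 1.94 CPM. With both muscle-bearing libraries left out Clec9a passed (edgeR adjusted p = 0.0159) and Cd209a did not (0.169). No marker of the list fell without control 2, control 3 or TGFalpha 1, although 5, 4 and 4 had an unadjusted p below 0.05 with lower levels. Clec9a passed without control replicate 1 and Cd209a did not, and neither passed without TGFalpha replicate 2, where 1 other marker of the list fell. No eosinophil marker of 4 tested and no neutrophil marker of 8 passed with edgeR, DESeq2 or limma-voom. By unadjusted p below 0.05, edgeR had 1 eosinophil marker lower and 1 neutrophil marker higher. The smallest adjusted p was 0.105 for the eosinophil chemokine receptor gene Ccr3 (log2 fold change -1.08 ± 0.37) and 0.13 for the neutrophil granule gene Camp (1.70 ± 0.63). The eosinophil granule gene Prg2 had 42 of its 53 counts in TGFalpha replicate 1. Cartilage markers summed to at most 1.27 CPM in any library, with Acan, Col9a1 and Matn1 at 0. Cardiac markers summed to between 52 and 144 CPM, and all 6 that were tested had a negative log2 fold change. Actc1 was the 1 cardiac marker that fell (adjusted p = 0.035), a call that was lost with both muscle-bearing libraries left out and in 5 of the 6 fits without 1 library, all but that without TGFalpha replicate 3.

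The genes whose levels followed Kit most closely over the 6 libraries were Fzd4, Adgre4, Cmtm4, Phactr2 and Pard3b, with Pearson correlations of log2 CPM from 0.996 to 0.999 among 15069 genes compared. Gata2 ranked 496 in that order (r = 0.95) and Cpa3 7555 (r = -0.06). The genes most like Cpa3 were Ccdc3, Atp6v1e1, Galm, Ndel1 and Tdo2, with correlations from 0.965 to 0.988. These are descriptions over 6 libraries that share group and depth, with no test. Of the 5 genes most like Kit, Fzd4 went from 51.4 to 20.9 CPM on average and Adgre4 from 20.4 to 5.75 CPM. Cmtm4 went from 145 to 94.2, Phactr2 from 124 to 56 and Pard3b from 25.6 to 16.2 CPM.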

How the data were processed

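The deposited data are whole-number read counts, not normalized, for 24061 gene identifiers in 6 libraries. The submitters' processing notes name bcl2fastq, CASAVA 1.8, TopHat and DESeq and the build mm10. The counting tool, its strand setting and the annotation are not given in the sources used here, so overlapping and antisense genes cannot be separated. Each column name equals 1 sample's description. Symbols and coordinates came from the RefSeq table (GRCm38.p6, equivalent to mm10), which named 23976 and left 85 unnamed. No duplicate libraries were found (chi-square per degree of freedom 46.6 or more within groups).

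The test was edgeR 4.0.16 (quasi-likelihood F test, TMM scaling, its expression filter by group, group as the only term) in R 4.3.3 on all genes, with Benjamini-Hochberg adjustment and a threshold of 0.05. The step was tested on simulated counts. For the counts by unadjusted p below 0.05 no share over all genes is given, so they stand without a background. CPM uses scaled library sizes, and log2 CPM a prior count of 2. Exon lengths are from GENCODE M21. Alternatives were DESeq2 1.42.0, limma-voom (limma 3.58.1), other scalings and filters, a robust fit, a replicate block and each library left out. Leaving out both first replicates was added after seeing the data, as was running all alternatives on the companion genes.

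The members and lists were chosen with earlier results of these data known. Named are all members, from each list the called genes with the smallest adjusted p (up to 3), any called gene that moved most strongly opposite to its list or, where none was called, the gene with the smallest adjusted p, defining markers of other cell types at 0 throughout, and the 5 genes most like Kit and Cpa3. Mcpt1, Cma1, Hdc, Srgn, Mitf, Mrgprb2, Fcer1g, Il33, Prg2, Prss34, Cd200r3 and Lmo2 were named beyond this rule with their values seen.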

Additional observations from a re-analysis of the deposited data

How the results depend on the processing

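With 16089 genes tested and 3 libraries a group, the counts of calls moved with single libraries. The 2 members called higher were 1 without a filter, 0 under a filter of 1 CPM in 3 libraries, which removes Mcpt2 and Tpsab1, and 0 with both first replicates left out. Over the fits with 1 library left out they ranged from 0 to 2. The 2 called lower ranged from 0 to 2 over the same fits and were 1 with both first replicates left out. Over all genes 1340 were called, against 2506 with DESeq2, 473 with both first replicates left out and between 238 and 1088 with 1 library left out. Of the companion genes 1 rose and 15 fell. The rises were 2 without a filter, with DESeq2 or with the replicate block, and 0 with both first replicates left out or any 1 library left out (from 0 to 0). The falls were 32 with DESeq2, 5 with both first replicates left out and from 0 to 21 with 1 library left out. Scaling by library totals or DESeq2 size factors and the robust fit changed no member's call.

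Cpa3 ranged from -0.40 to 0.060 in log2 fold change with 1 library left out and changed sign without TGFalpha replicate 3 (edgeR adjusted p = 0.926), and the cause was not tested. Replicate numbers were used as a replicate block although nothing says that they pair the libraries: the deviations of same-numbered libraries correlated at 0.421, -0.052 and 0.222, and control replicate 2 correlated best with TGFalpha replicate 3 (0.377). In that fit the same 2 members rose and 2 fell (Kit adjusted p = 0.00253, Gata2 0.0134, Mcpt2 0.0191, Tpsab1 0.0482). Il5 and Lmo2 did not pass in it (0.0719 and 0.0739). Low counts limit the precision for 6 members with under 90 counts in each group, Mcpt4, Mcpt8, Tpsab1, Tpsb2, Fcer1a and Ms4a2.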
